A study of Mus musculus with 16 samples.

Results

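The cytosolic ribosomal proteins are the proteins of the 40S and 60S subunits that translate nuclear mRNA. Their genes were taken by symbol: Rpl or Rps followed by digits and at most one ending, or Rplp0, Rplp1, Rplp2 and Rpsa, without Rpl3, its paralogue Rpl3l and pseudogenes. This gave 68 of the 17097 genes measured, 25 of the small subunit and 43 of the large subunit. The cells were ventricular cardiomyocytes of mice with a GPER knockout and of GPER-intact mice, where GPER is the G protein-coupled estrogen receptor. Each mouse gave 1 array, with 4 mice in each of 4 groups: female intact (418, 421, 422 and 425), female GPER KO (417, 419, 426 and 427), male intact (430, 433, 452 and 453) and male GPER KO (431, 432, 444 and 451). The labels give an age of 15 weeks for all mice, whereas the study's methods give a greater age at cell isolation. The study describes the deletion as restricted to cardiomyocytes, and the Cre line and the strain are not given in the sources used here. Cells were released by perfusing the heart with collagenase, strained and spun down at low speed, without a sort, so cells other than cardiomyocytes could remain. In such bulk samples, fewer cells of a type and less RNA per cell cannot be told apart.

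Each ribosome holds a single copy of most of these proteins, so their genes are usually expressed together. Many of their mRNAs begin with a C followed by a run of pyrimidines, the terminal oligopyrimidine (TOP) motif, through which mTORC1 and the protein LARP1 control how strongly they are translated. In the heart, ribosome number is known to follow growth demand, and ribosomal protein transcripts are among the abundant transcripts of most cells. A change of mRNA level on an array says nothing of translation or of ribosome number.

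The start regions of genes that the results below turn on are printed here because the TOP motif is read from the start of the mRNA. Each sequence is the 30 bases from 15 bases before the RefSeq start (GRCm38.p6), 5′ to 3′ on the gene's strand, so that the start is the 16th base and the longest pyrimidine run is in capitals. RefSeq starts can be some bases away from the start used in these cells.
Rpl27a (chr7:109519180-109519209, plus strand): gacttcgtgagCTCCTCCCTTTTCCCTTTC
Rpl35 (chr2:39005117-39005146, minus strand): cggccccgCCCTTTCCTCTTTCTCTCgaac
Rpl13 (chr8:123102335-123102364, plus strand): TTCCCTTTCgcctgattttgattggcgttt
Rpl12 (chr2:32961697-32961726, plus strand): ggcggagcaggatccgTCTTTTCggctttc
Rps12 (chr10:23787195-23787224, minus strand): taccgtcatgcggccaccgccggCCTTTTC
Rpsa (chr9:120127751-120127780, plus strand): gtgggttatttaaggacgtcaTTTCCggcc
Rps6 (chr4:86857353-86857382, minus strand): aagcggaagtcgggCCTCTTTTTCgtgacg
Rplp2 (chr7:141447636-141447665, plus strand): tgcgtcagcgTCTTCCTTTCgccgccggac
In Rpl27a, Rpl35, Rps6 and Rplp2 the run spans the annotated start. In Rpl13 the run ends before the start, and in Rpl12, Rps12 and Rpsa it begins after it. RefSeq promoter entries matched 55 of the 68 genes. A run of at least 8 pyrimidines within these 30 bases was found in 24 of the 55 (43.6%), against 14% of 17492 protein-coding genes. The letters CCGGAAG, the core bound by ETS factors such as GABP, occurred on either strand of the 300 bases around the start in 45.5% of the members and 12.9% of coding genes. The YY1 letters AAGATGGC occurred in 9.09% against 3.57%, the TATA letters TATAAA in 12.7% against 14.8%, and the SP1 letters GGGCGG in 61.8% against 49.2%. The first and second of these can overlap, since AAGATGGC begins with the letters AAG that end CCGGAAG, and a match is a description of the sequence only. Of the 11 genes called below in the comparison of intact males with intact females, 3 had the pyrimidine run, against 21 of the 44 other matched members.

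Most members were bright on the array. The chosen probe sets of 64 members had a mean over all 16 arrays between 8.62 and 11.95 on the log2 scale and stood at or above the 96.6 percentile of all 45141 probe sets. The limit of 8 that sets these 64 apart was chosen after the values were seen. The other 4 were dim: Rpl7l1 had a mean of 6.30, Rpl14 of 3.19, Rpl39l of 3.19 and Rps15a of 3.02. Rpl7l1 and Rpl39l are paralogues of Rpl7 and Rpl39, and the latter is known from the testis, whereas Rpl14 and Rps15a are constitutive ribosomal proteins, so the values of their probe sets are not read as levels. All 4 stay in every count below. The probe sets of 22 members can bind transcripts of other genes, such as the many processed pseudogenes of this family: 17 carry the platform's x mark and 5 its s mark for shared sequence.

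The sex labels held on the arrays. Eif2s3y, a Y-linked translation initiation gene, ranged from 6.04 to 7.17 in the 8 males and from 2.24 to 2.60 in the 8 females, and Xist from 4.45 to 5.28 in males and from 7.57 to 8.97 in females. The 12 cardiomyocyte markers measured had a mean level of 12.17 to 12.32 per array over all 4 groups. It was 12.173 to 12.241 in female intact and 12.276 to 12.317 in female GPER KO mice. In males it was 12.202 to 12.263 in intact and 12.264 to 12.319 in GPER KO mice. In males 1 of these markers was called higher in GPER KO, against 0.62% of all genes, and the median difference of the 12 was -0.01. Gper1 itself gave 2.64 to 3.11 on every array, near the dim end, and does not check the genotype. Some technical values moved with sex. The 7 control probe sets for BioB, BioC and BioDn, transcripts added at a fixed amount before hybridization, averaged 7.89 to 8.19 in females and 7.51 to 7.87 in males, with no overlap. The median of the 23 background control probe sets was 2.38 to 2.49 in females and 2.33 to 2.40 in males, and the highest of them 6.84 to 7.27 and 6.70 to 7.02. All female animal numbers also lie below all male ones, so that sex, these controls and any order of processing that follows the numbers cannot be told apart. Within the males the controls overlapped between GPER KO (7.51 to 7.87) and intact (7.52 to 7.86).

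The mean over the 68 members was highest in female intact cells and lowest in male intact cells. It was 10.10 ± 0.06 (log2, SD, n = 4) in female intact, 10.03 ± 0.09 in female GPER KO, 9.96 ± 0.08 in male GPER KO and 9.84 ± 0.10 in male intact mice. Neighbours in this order overlapped, whereas the ends did not: 10.04 to 10.17 in female intact and 9.71 to 9.93 in male intact mice. Both subunits gave the same order, with the small subunit at 10.25 ± 0.07 in female intact and 9.99 ± 0.10 in male intact mice, and the large subunit at 10.01 ± 0.06 and 9.75 ± 0.09. Among the 64 bright members the male intact mean was the lowest of the 4 group means for all 64, and the female intact mean was the highest for 56. The full order of female intact, female GPER KO, male GPER KO and male intact held for 51 of them. These members share RNA and arrays, so the counts describe 16 arrays and are not independent.

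**Figure D1:**
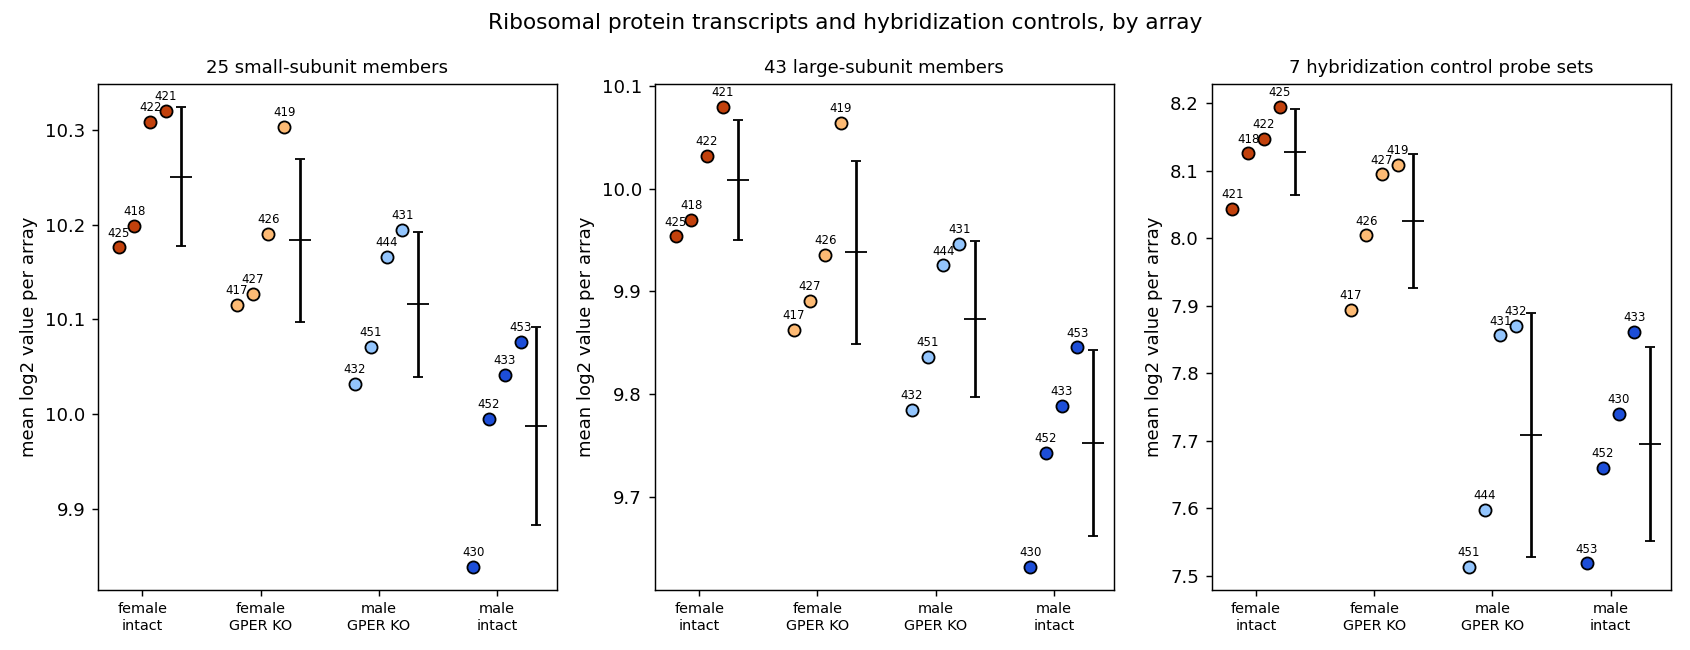
Mean log2 value on each array (points, with the animal number) over the 25 small-subunit members, the 43 large-subunit members and the 7 hybridization control probe sets, for 4 groups of 4 mice, with the group mean and 1 SD as a bar. Both subunits are highest in female intact and lowest in male intact mice, animal 430 is lowest, and the hybridization controls separate the sexes without separating the genotypes in males.

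Intact males were compared with intact females as the sex difference without the deletion. Every ribosomal protein gene with a call was lower in male than in female cells: 11 of the 68 members passed an adjusted p of 0.05 (limma, Benjamini-Hochberg over 17097 genes). Over all genes tested, 0.579% were called and 0.298% were called lower. The median difference over the members was -0.27 on the log2 scale, a linear level 17.0% lower, whereas the median over all genes was -0.02. The difference was below 0 for 67 of 68 members, against 57.8% of all genes. At an unadjusted p of 0.05, 61 members were lower and 0 higher, against 9.93% of all genes lower and 7.55% higher. In 52 members every male intact array lay below every female intact array, which held for 5.39% of all genes.

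In the small subunit 5 of 25 members were called. Rpsa, the 40S protein also known as the laminin receptor, read 10.13, 10.34, 10.30 and 10.10 in female intact mice 418, 421, 422 and 425. In male intact mice 430, 433, 452 and 453 it read 9.84, 9.85, 9.76 and 9.80. The groups stood well apart, with females 421 and 422 highest, and Rpsa fell by 0.41 (log2, SE 0.06, adjusted p = 0.0116, limma) in males. Rps12 read 8.73, 8.92, 8.90 and 8.77 in the females and 8.13, 8.53, 8.40 and 8.46 in the males. Here too no male reached a female value, with animal 430 lowest, and the difference was -0.45 (SE 0.09, adjusted p = 0.0480). Rps16, which reaches toward the P site of the 40S subunit, read 10.07, 10.26, 10.31 and 10.02 against 9.56, 9.81, 9.79 and 9.87. Its difference was -0.40 (SE 0.08, adjusted p = 0.0480). Rps19, known for its mutations in Diamond-Blackfan anaemia, read 9.97, 10.09, 10.14 and 9.78 against 9.47, 9.73, 9.58 and 9.68, a difference of -0.38 (SE 0.08, adjusted p = 0.0480). The gap between its lowest female and its highest male array was small. Rps21, a small protein of the 40S subunit, differed by -0.35 (SE 0.07, adjusted p = 0.0480), from 10.65, 10.77, 10.76 and 10.69 in females to 10.19, 10.43, 10.40 and 10.44 in males.

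Rps6, the 40S protein phosphorylated by S6 kinase downstream of mTORC1, did not pass the test. It read 11.14, 11.31, 11.31 and 11.22 in female intact mice and 10.99, 11.11, 11.07 and 11.07 in male intact mice, a difference of -0.19 (SE 0.06, adjusted p = 0.147). These groups did not overlap either. Rps18, often used as a reference transcript, differed by -0.30 (SE 0.10, adjusted p = 0.148), and its groups overlapped because male 453 at 10.34 lay above females 418 and 425 at 10.26 and 10.32. Rps2 and Rps29 showed small differences of -0.11 and -0.08. Fau, which encodes the 40S protein Rps30 fused to a ubiquitin-like protein and is not among the members by symbol, differed by -0.31 (SE 0.07, adjusted p = 0.0582).

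In the large subunit 6 of 43 members were called. Rpl10, an X-linked gene whose protein joins the 60S subunit late in its assembly, read 10.67, 10.72, 10.72 and 10.64 in female intact mice and 10.20, 10.44, 10.25 and 10.31 in male intact mice. All 4 males lay below all 4 females, and the difference was -0.39 (SE 0.06, adjusted p = 0.0132). Rpl12, at the base of the stalk where elongation factors bind, had the lowest difference of the family, at -0.47 (SE 0.09, adjusted p = 0.0452). It read 9.15, 9.38, 9.23 and 9.18 in females and 8.60, 8.84, 8.74 and 8.86 in males. Rpl13 differed by -0.36 (SE 0.07, adjusted p = 0.0256), with females at 10.16, 10.30, 10.33 and 10.22 and males at 9.79, 9.95, 9.84 and 9.97. Rpl27 differed by -0.30 (SE 0.06, adjusted p = 0.0401) and Rpl27a by -0.33 (SE 0.07, adjusted p = 0.0452). Rpl35, which lies near the exit of the tunnel for the growing peptide, differed by -0.40 (SE 0.09, adjusted p = 0.0480). Its female arrays read 10.12, 10.23, 10.14 and 10.07 and its male arrays 9.56, 9.72, 9.79 and 9.88. In none of these 6 genes did the groups overlap.

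The acidic stalk proteins, which recruit elongation factors to the 60S subunit, did not pass the test. Rplp0 read 11.53, 11.62, 11.68 and 11.55 in female intact mice and 11.26, 11.44, 11.33 and 11.49 in male intact mice, with a difference of -0.22 (SE 0.06, adjusted p = 0.0901). Rplp1 differed by -0.29 (adjusted p = 0.0843) and Rplp2 by -0.21 (adjusted p = 0.136). None of the 3 overlapped between the groups. Rplp0 belongs with Rpl13a, Rpl32 and Rpl19 to the transcripts often used as references in quantitative PCR, and these 3 differed by -0.29, -0.33 and -0.24, with adjusted p-values of 0.0878, 0.112 and 0.0969. Rpl11, which with Rpl5 binds the p53 regulator Mdm2 when ribosome assembly is disturbed, differed by -0.29 (adjusted p = 0.0668).

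**Figure D2:**
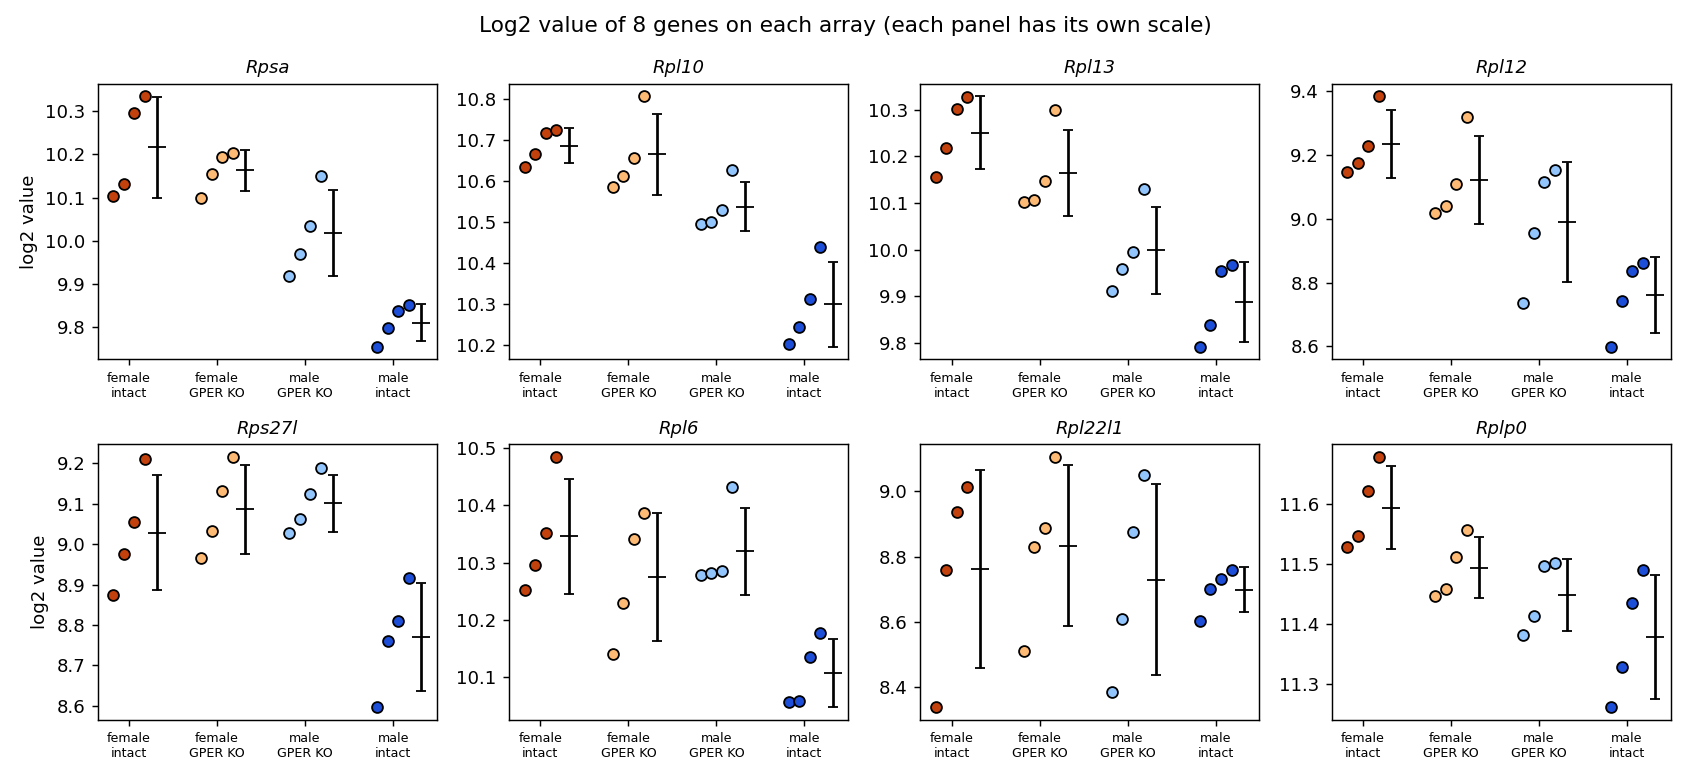
Log2 value of 8 genes on each of the 16 arrays (points, sorted within a group), with the group mean and 1 SD, each panel on its own scale. In Rpsa, Rpl10, Rpl13 and Rpl12 the male intact arrays lie below all female intact arrays, in Rps27l and Rpl6 they lie below all male GPER KO arrays, and in Rpl22l1 the groups overlap.

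The count of calls depended on single arrays. The count of called members was 0 without female intact 421, without female intact 422 or without male intact 452. Without female intact 425 it was 23. Over all 17097 genes the number called moved as well, from 99 to 15, 13, 18 and 375 in the same order. The median of the members stayed between -0.31 and -0.22 when any 1 array was left out. With the hybridization controls as a covariate, an alternative chosen after the data were seen, the median was -0.28. There 0 members and 5 of all genes were called. The controls did not overlap between the sexes, so this fit cannot separate them from sex. Its median and its counts therefore do not show what remains of the sex difference after a technical adjustment.

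Of the 4 dim members none was called, and Rpl7l1 was the single member above 0 (0.05). The 33 other bright probe sets of 23 member genes, which were not chosen as the value of a gene, all lay lower in male intact mice, with a median of -0.27. They measure the same transcripts on the same arrays, so they bear on the probe choice and not on the mice. Rpl10, for instance, was lower in males by both of its probe sets, at -0.39 and -0.33. Member probe sets below the limit of 8 went both ways. The other probe set of the called gene Rpl13, with a mean of 7.74, gave 0.04 against -0.36 for the chosen one. A probe set of Rpl17 (mean 6.83) gave 0.20, whereas probe sets of Rpl37 (6.88) and Rps21 (5.77) gave -0.18 and -0.41.

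**Figure D3:**
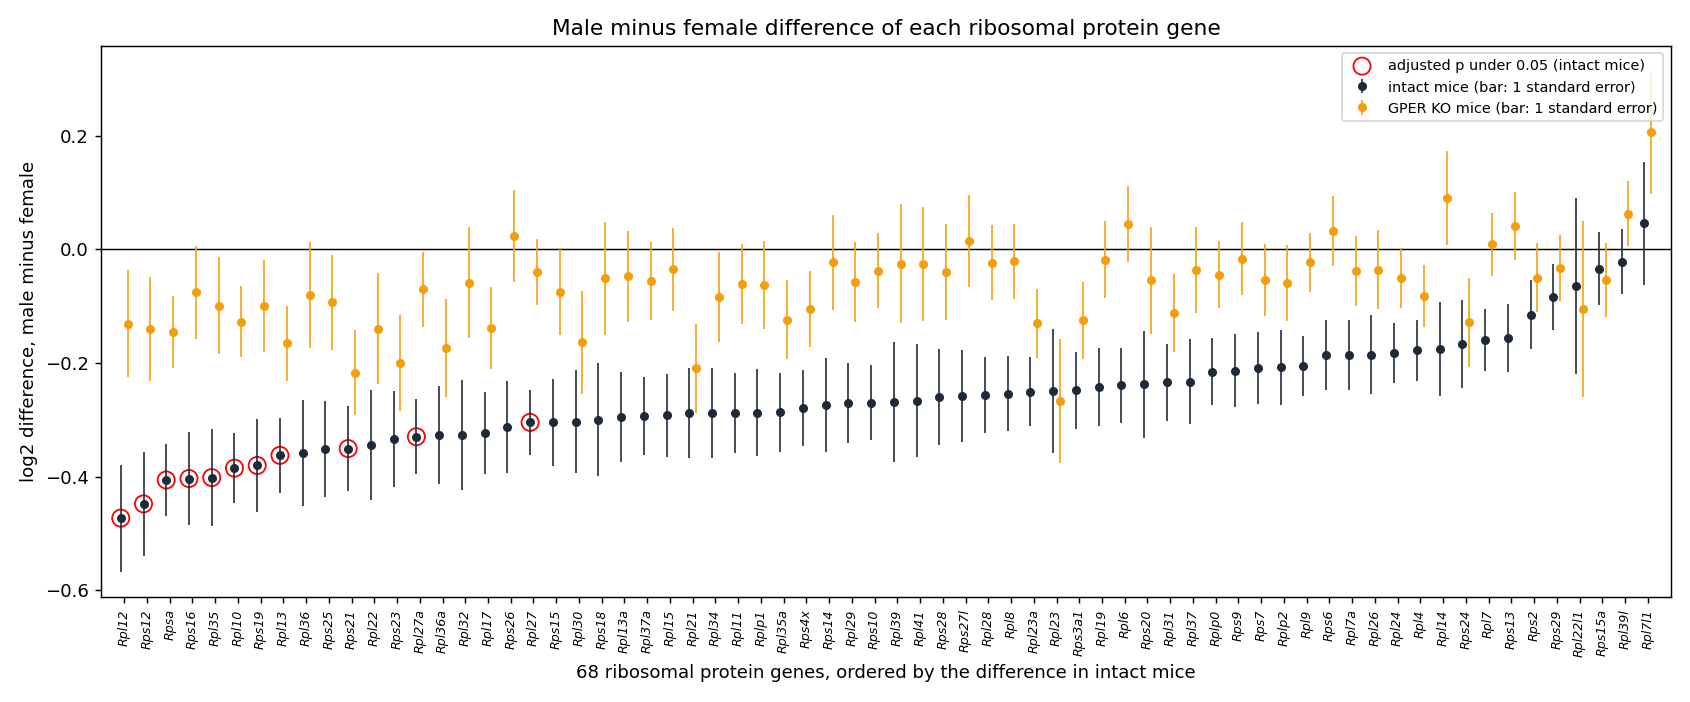
Male minus female log2 difference of each of the 68 genes, in intact mice (dark) and in GPER KO mice (orange), with 1 standard error, ordered by the difference in intact mice. Red circles mark the 11 genes called in intact mice. The dark points lie below 0 for all genes but Rpl7l1, and the orange points lie mostly between the dark ones and 0.

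The shift was spread unevenly over the arrays. Animal 430, a male intact mouse, gave the lowest value of all 16 arrays for 56 of the 68 members, and its mean over the members was 9.71 against 9.83 to 9.93 in the other 3 male intact mice. Female intact 421 and 422 gave the highest value for 20 members each, and female GPER KO 419 for 22. Animal 430 also had the widest 3′ minus 5′ difference of the beta-actin control probe sets, a measure of RNA integrity, at 0.964, against 0.512 to 0.863 on the other 15 arrays. The same measure for Gapdh was widest in female intact 422, at 0.321, an array high for most members, and next in 430, at 0.287. Without array 430 the median difference between intact males and females was -0.22, with 2 members and 36 of all genes called. With the actin measure as a covariate it was -0.27, with 13 members and 128 of all genes called. The 18S rRNA control probe sets, at 12.07 to 12.46, did not separate the groups.

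**Figure D4:**
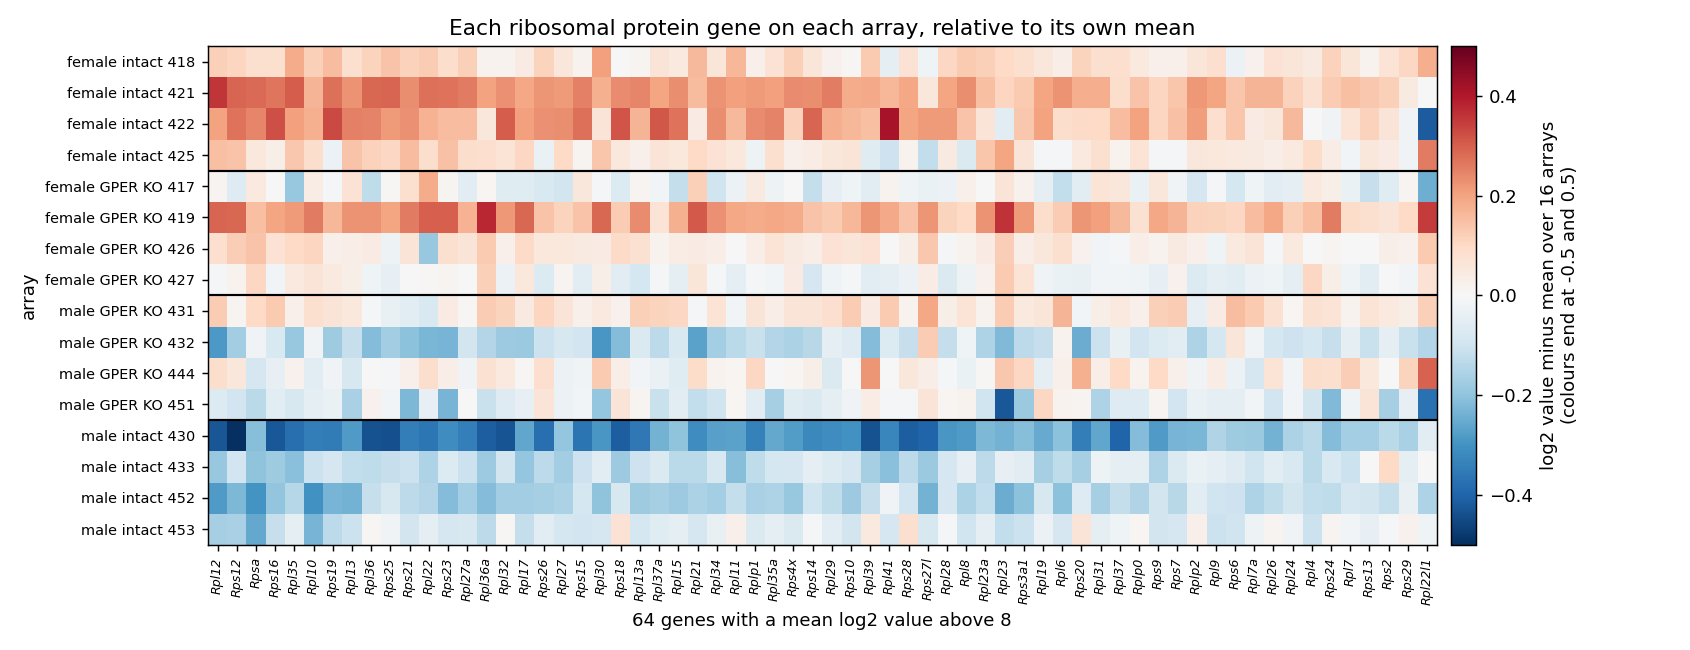
Log2 value of each of the 64 bright genes (columns) on each of the 16 arrays (rows, in 4 groups), minus the gene's mean over all arrays, with genes ordered as in the plot of sex differences. Female intact 421 and 422 and female GPER KO 419 are high for most genes, male intact 430 is low for most, and Rpl22l1 at the right end follows another pattern.

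Among GPER KO mice the same male minus female comparison, added after the intact values had been seen, called 0 members, against 0.0702% of all genes. The median over the members was -0.06, with 59 of 68 below 0, and the median over all genes was 0.02. At an unadjusted p of 0.05, 7 members were lower and 0 higher, against 3.18% of all genes lower and 8.15% higher. The groups overlapped for every member, whereas 2.02% of all genes were lower without overlap. The smallest p-values belonged to Rps21 (-0.22, SE 0.07, adjusted p = 0.292), Rpl21 (-0.21), Rpl13 (-0.17, but 0.01 with its probe sets averaged), Rpl23 (-0.27) and Rps23 (-0.20). Rps21 read 10.61, 10.79, 10.60 and 10.54 in female GPER KO mice 417, 419, 426 and 427 and 10.48, 10.33, 10.56 and 10.31 in male GPER KO mice 431, 432, 444 and 451, so that male 444 lay above female 427. Rpsa, called in intact mice, read 10.10, 10.20, 10.20 and 10.15 in the female and 10.15, 10.04, 9.97 and 9.92 in the male GPER KO mice.

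GPER KO was then compared with intact cells within each sex. In females 0 members were called, against 0.281% of all genes. The median was -0.07, with 60 of 68 below 0, and over all genes the median was -0.02. Rpl27 was the single member with an unadjusted p under 0.05, at -0.13 (SE 0.06, adjusted p = 0.368), against 7.53% of all genes lower and 5.05% higher at that p. It read 9.56, 9.71, 9.73 and 9.60 in female intact and 9.41, 9.61, 9.55 and 9.51 in female GPER KO mice, and the highest GPER KO array, 419, lay above the lowest intact arrays. Rpl37a, Rplp2, Rpl28 and Rps14 followed with differences of -0.14, -0.14, -0.14 and -0.16. The 8 members above 0 reached at most 0.08 (Rpl23). Without the 2 highest intact arrays, 421 and 422, the median was -0.01.

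In males 0 members were called, against 0.62% of all genes, and the values lay on the other side of 0. The median difference was 0.12, a linear level 8.57% higher in GPER KO, with 67 of 68 members above 0, and the median over all genes was 0.01. At an unadjusted p of 0.05, 18 members were higher and 0 lower, against 7.05% of all genes higher and 3.06% lower. In 12 members all GPER KO arrays lay above all intact arrays, against 4.24% of all genes. All 33 other bright probe sets of member genes also lay above 0, with a median of 0.11. Without male intact 430 the median was 0.07.

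Rps27l, a paralogue of Rps27 known as a p53 target, had the smallest p-value in males. It read 9.19, 9.12, 9.03 and 9.06 in male GPER KO mice 431, 432, 444 and 451 and 8.60, 8.81, 8.76 and 8.92 in male intact mice 430, 433, 452 and 453. All 4 GPER KO arrays were higher, with a difference of 0.33 (SE 0.08, adjusted p = 0.0924). It passed the test with array weights (adjusted p = 0.0379), whereas 19 of the 20 alternatives run for this comparison called 0 members. The chosen probe set carries the x mark for shared sequence, and the other probe sets of the gene gave 0.26 and 0.28. In females the same gene differed by 0.06 (SE 0.08, adjusted p = 0.819). Rpl10 differed by 0.24 in males (adjusted p = 0.115), from 10.20, 10.44, 10.25 and 10.31 in intact to 10.63, 10.53, 10.50 and 10.50 in GPER KO mice, again with no overlap. Rpl6, a protein of the 60S subunit, read 10.06, 10.13, 10.06 and 10.18 in intact and 10.43, 10.28, 10.29 and 10.28 in GPER KO mice, a difference of 0.21 (adjusted p = 0.214). Rpsa and Rps9 differed by 0.21 and 0.20, with adjusted p-values of 0.201 and 0.242. Rps6 differed by 0.15 (adjusted p = 0.417), and Rplp0 by 0.07 (adjusted p = 0.767).

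Markers of macrophages moved with genotype in the same arrays. All 18 macrophage markers measured lay above 0 in males and 6 were called higher, against 0.62% of all genes called. Their mean level per array was 4.80 to 5.43 in male GPER KO and 4.47 to 4.96 in male intact mice. In females 16 of the 18 lay above 0 without a call. Their mean level there was 4.59 to 4.86 in GPER KO and 4.35 to 4.57 in intact mice. The 17 endothelial markers lay below 0 in males without a call, at 5.92 to 6.48 in GPER KO and 6.15 to 6.80 in intact mice. In females 16 of the 17 endothelial markers lay below 0, without a call. Between intact males and females the differences of these markers ran opposite to those of the members, with no call: 15 of 18 macrophage markers, 13 of 17 endothelial markers (median 0.22) and 12 of 13 fibroblast markers (median 0.15) lay above 0. The mean levels in intact females and intact males overlapped for all 3 lists, with fibroblast markers at 5.46 to 5.98 and 5.68 to 6.16. The lymphocyte markers, dim at 3.57 to 3.71 per array, ran the same way as the members, with 8 of 10 below 0 (median -0.05). Of the mural cell markers 5 of 7 lay above 0, and of the erythroid markers 2 of 4, without a call. Between GPER KO males and females all 18 macrophage markers lay above 0 and 1 was called higher in males, against 0.0702% of all genes called. The part of these cells in the values of the ribosomal protein genes was not tested.

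The mean of the GPER KO differences over both sexes had a median of 0.02, with 50 of 68 members above 0 and 0 called, against 1.36% of all genes. At an unadjusted p of 0.05, 4 members were higher and 0 lower, against 5.9% of all genes higher and 5.77% lower: Rps27l (0.19, adjusted p = 0.131), Rpl10 (0.11), Rpl36a (0.15) and Rps9 (0.10). The difference between the sexes in the GPER KO effect, male minus female, was tested in the same fit. It called 0 members and 0% of all genes. Its median over the members was 0.20, with 65 of 68 above 0, and over all genes 0.04. The 73 mitochondrial ribosomal proteins, which serve the separate ribosomes of mitochondria, had a like median of 0.19, with 67 above 0, and their median was -0.13 in females, with 64 below 0, and 0.05 in males, with 57 above 0. None of them was called in these 3 contrasts. At an unadjusted p of 0.05, 30 members were higher and 0 lower, against 6.83% of all genes higher and 4.14% lower, and the lowest adjusted p among the members was 0.426. The smallest p-values were those of Rpl27 (0.27), Rpl6 (0.28), Rps26 (0.34), Rpl10 (0.26) and Rpsa (0.26). The 6 comparisons draw on the same 16 arrays, and the male intact arrays enter 4 of them.

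**Figure D5:**
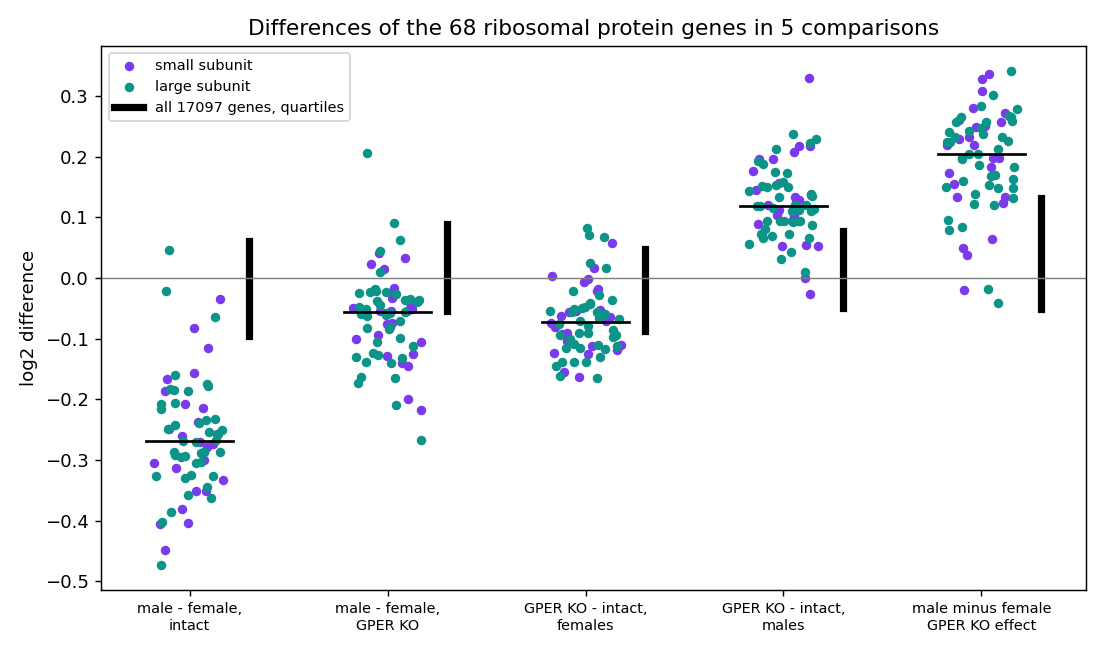
Log2 difference of each of the 68 members (points, by subunit) in 5 comparisons that share arrays, with the median of the members as a line and the quartiles of all 17097 genes as a black bar beside them. Most members lie below the quartile range of all genes in the comparison of intact males with intact females and above it in male mice and in the difference of the GPER KO effects.

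Paralogues were compared where both had a probe set of their own. Rpl22, which binds the 60S subunit, read 8.90, 9.05, 8.95 and 8.86 in female intact and 8.41, 8.62, 8.63 and 8.73 in male intact mice, a difference of -0.34 (SE 0.10, adjusted p = 0.0990). Its paralogue Rpl22l1 read 8.94, 8.76, 8.34 and 9.01 in female intact and 8.70, 8.76, 8.60 and 8.73 in male intact mice, a difference of -0.06 (SE 0.16, adjusted p = 0.868). Its SD over the female intact arrays was 0.30, against a median SD within groups of 0.0989 over the 64 bright members, and array 422, the highest array for 20 members, was its lowest. The difference between the paralogues themselves was not tested. Rpl36a, on the X chromosome, and its autosomal paralogue Rpl36al, which has its own probe set and is outside the members by its symbol, differed by -0.33 (adjusted p = 0.0822) and -0.25 (adjusted p = 0.0614) between intact males and females. Rpl7 differed by -0.16 (adjusted p = 0.162) and Rpl7l1 by 0.05 (adjusted p = 0.863). Rpl39 differed by -0.27 (adjusted p = 0.202) and the dim Rpl39l by -0.02 (adjusted p = 0.880).

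The X-linked members are Rpl10, Rpl36a, Rpl39 and Rps4x. Their differences between intact males and females were -0.39, -0.33, -0.27 and -0.28, and their median of -0.30 stood beside -0.27 for all members. Only Rpl10 passed the test. Rps4x, whose human homologue escapes X inactivation, read 10.71, 10.82, 10.70 and 10.61 in female intact and 10.31, 10.50, 10.40 and 10.52 in male intact mice (adjusted p = 0.0638). Eif2s3x, the X-linked gamma subunit of initiation factor eIF2, which escapes X inactivation in the mouse, differed by -0.52 (SE 0.06, adjusted p = 0.00137) in intact and -0.80 (SE 0.06, adjusted p = 3.95e-06) in GPER KO mice.

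Other genes of translation were called between intact males and females as follows, against 0.579% of all genes. A mixed list held elongation factors, genes named with them such as Eef2k and Eef1e1, and further TOP mRNA genes. Of its 16 genes measured, 0 were called and 7 lay below 0, with a median of 0.02. Eef1d (-0.29, adjusted p = 0.0519) and Eef2 (-0.24, adjusted p = 0.0970) lay below 0, whereas Eef1a1 (0.23, SE 0.16, adjusted p = 0.481) and Pabpc1 (0.02) did not. Of 27 initiation factors, 2 were called, both lower in males: Eif2s3x and Eif3k (-0.35, adjusted p = 0.0432), and the median was -0.06. Of 75 ribosome assembly factors, 1 was called higher (Riok3, a kinase of pre-40S particles, 0.44, adjusted p = 0.0480), with a median of 0.01. Of 28 genes of mTORC1 signalling and growth control, 1 was called lower (Lamtor2, a subunit of the Ragulator complex, -0.33, adjusted p = 0.0480). None of 14 genes of rRNA transcription and none of 10 chaperones and importins of ribosomal proteins was called. The 73 mitochondrial ribosomal proteins had a median of -0.11, with 60 below 0 and 1 called lower.

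The genotype contrasts called 0 ribosomal protein genes and a few genes of ribosome production, at shares that can be read against those of all genes, 0.62% in males and 1.36% over both sexes. Of the 75 assembly factors 1 was called in each of these contrasts, and in females none of these lists had a call. Polr1e, a subunit of RNA polymerase I, rose by 0.49 in male GPER KO cells (SE 0.10, adjusted p = 0.0323) and by 0.44 over both sexes (adjusted p = 0.00363). Rrp12, a factor of ribosome export and maturation, rose by 0.60 in males (SE 0.13, adjusted p = 0.0422) and by 0.56 over both sexes (adjusted p = 0.00309). In females the same genes differed by 0.38 (adjusted p = 0.158) and 0.53 (adjusted p = 0.115). Myc, a transcription factor that drives ribosome production, rose by 0.27 over both sexes (adjusted p = 0.0426). Over the 75 assembly factors the median was 0.05 over both sexes, with 60 above 0, whereas for the ribosomal proteins it was 0.02 with 50 of 68 above 0. In males the median was 0.08 for the assembly factors and 0.12 for the ribosomal proteins.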

How the data were processed

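RNA of isolated ventricular cells from 16 mice was hybridized to Affymetrix GeneAtlas MG-430 PM array strips, 1 array per mouse. As deposited by the authors, each probe set has 1 log2 value per array, for which the submitters' processing notes list RMA and Partek and give no version. RMA as usually run corrects background, normalizes arrays by quantiles and summarises probes, so levels are comparable for 1 gene across arrays. Between genes they serve here only to set bright probe sets apart from dim ones, and no difference in level between genes was tested. Array medians were 3.47 to 3.51. Depth has no meaning for arrays, and the 4 arrays per group limit the precision. The labels name no batch, strip or day. The p-values set each difference against the spread between arrays of a group, with 1 array per mouse. They do not cover a processing difference that follows sex.

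Of 45141 probe sets, 28898 had 1 gene in the platform annotation, 551 had several and 15692 had none. Only the first kind was used, with symbols updated through RefSeq (28689 matched, GRCm38.p6). A gene with several probe sets was represented by its brightest one, judged by the mean of all 16 arrays. Of 131 probe sets of the members, 34 members had several, up to 5. A further 14 probe sets carry a family symbol together with another gene and were left out. Rpl5, Rps3, Rps27, Rps27a, Rpl10l, Rps4l and Rack1 are among the genes not analysed here.

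The 4 group means were fitted on all 16 arrays with limma 3.58.1 under R 4.3.3, using its linear fit and empirical Bayes moderation without filter or covariate, and p-values were adjusted by Benjamini-Hochberg across the 17097 genes. The script was tested on simulated data. A gene is called at an adjusted p under 0.05. Tables were made in Python 3.11.15 with pandas 2.3.3 and numpy 2.4.6. The text names members called in a contrast and up to 5 per direction with the smallest unadjusted p. It also names paralogue pairs, stalk proteins, Rpsa, Rps6, Rpl11, reference transcripts, X-linked members and the leading genes of each further list. Members and lists were chosen with earlier results of these data known. Alternatives covered the probe set of a gene, shared sequence, a filter, normalization, array weights, moderation, arrays of 1 sex and each array left out. Those chosen after seeing the data were the sex contrast in GPER KO mice, leaving out 421 and 422 together, and the actin and hybridization controls as covariates.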

Additional observations from a re-analysis of the deposited data

Results flagged for a closer look

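In 9 of 188 groups of 4 values tested (4.79%), 1 array stood far from the other 3 by Dixon's test, a share that chance alone gives in about 1 of 20 groups. In female intact mice, array 421 was high for Rpl36al (9.551, the others 9.479 to 9.487) and array 425 for the dim Rps15a (3.151). In female GPER KO mice, array 426 was high for Rps15a (3.203) and array 427 for the 3′ minus 5′ difference of beta-actin (0.8632). In male intact mice, array 430 was high for that actin difference (0.9636, the others 0.6307 to 0.6639) and low for Rps21 (10.19, the others 10.40 to 10.44). In male GPER KO mice, array 431 was high for Rpl6 (10.43, the others 10.28 to 10.29), and array 432 was low for Rplp2 (11.02, the others 11.14 to 11.16) and for Rps18 (10.05, the others 10.29 to 10.33).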

How the results depend on the processing

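No paired analysis was possible because animal numbers are unique. The median differences of the members kept their sign in every alternative run except that of both sexes together. The median was -0.31 to -0.20 between intact males and females, 0.07 to 0.15 in males, -0.11 to -0.01 in females, -0.08 to -0.02 between GPER KO males and females, 0.14 to 0.25 for the difference of the GPER KO effects, and -0.002 to 0.05 over both sexes, where it was below 0 without male intact 430. The count of 11 calls between intact males and females moved more. It was 4 with the probe sets of a gene averaged, 4 with arrays centred on their median, 4 with array weights, 6 with the highest probe set on each array, 7 of the 46 members without shared sequence, 17 with a trend and robust moderation, 0 without 421 and 422 together, 0 with the hybridization controls as a covariate, and 0 to 23 with each array left out (0 without 421, 422 or 452, 2 without 430, 3 without 433 or 453, and 23 without 425). Over all 17097 genes the number called also moved, from 99 to 5 with the hybridization covariate and 375 without 425. Because the hybridization controls separate the sexes, that covariate cannot be told apart from sex in the comparisons of males with females. In males 1 member was called with array weights. Signs changed for some members. Between intact males and females, Rpl7l1 was -0.006471 after a further quantile normalization, -0.1339 with the hybridization covariate and -0.04826 to 0.1225 with 1 array left out. Rpl22l1 was 0.1794 with that covariate and -0.2052 to 0.02003 with 1 array left out, and Rpl39l was 0.01262 without 421 and 422 and -0.04894 to 0.006695 with 1 array left out. Between GPER KO males and females Rpl13, at -0.17 with its brightest probe set, was 0.01328 with the mean of its probe sets. In females Fau was 0.002571 without 421 and 422, and Rpl36a was -0.004231 to 0.1176 with 1 array left out. Rps15a was -0.06804 to 0.01716 in males with 1 array left out, and its difference of GPER KO effects was 0.008761 without 421 and 422 and -0.06091 to 0.03644 with 1 array left out. The cause of these changes was not tested.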
